A study of Mus musculus with 32 samples.

Results

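The data described here are the messenger RNA levels in the sub-polysomal fraction of 4T1 spheroids grown with or without added aspartate. They comprise the 8 sub-polysomal libraries of control spheroids among the 32 libraries of the series, 4 with aspartate and 4 without, and were chosen by their labels. 4T1 is a mouse mammary carcinoma cell line. All spheroids in these 8 libraries carried a non-targeting scramble shRNA (shSCR) delivered by lentivirus and were kept for 5 days in lung-like medium, a medium made to resemble lung interstitial fluid. The medium held 700 μM aspartate in the ASP shSCR group and no added aspartate in the NoASP shSCR group. The study made 4 independent spheroid pellets for each group and split each into a polysomal and a sub-polysomal fraction. The other 16 libraries came from spheroids with aspartate and an shRNA against Grin2d or Dhps. The shRNA cells were a drug-selected pool in culture, with no lung tissue or host cells.

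Polysome profiling sorts transcripts by density in sucrose, and so by how many ribosomes they carry. The sub-polysomal fraction holds transcripts with few or no ribosomes, so the level of a transcript there depends on how much of it the cell contains and on how much of it has been drawn into polysomes. NMDA receptors are glutamate-gated calcium channels that aspartate can also open, and calcium entry through them is a classical route to phosphorylation of CREB, a transcription factor that binds the cAMP response element. Hypusine is a modified lysine found on the translation factor eIF5A, built by deoxyhypusine synthase (Dhps) and then deoxyhypusine hydroxylase (Dohh). The comparison asks which transcripts differed in abundance outside polysomes when aspartate was supplied. Values were scaled within these libraries, so the total amount of sub-polysomal RNA was not measured, and a smaller number of cells cannot be told apart from less RNA per cell.

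Depth was 17317370 to 25639437 counts a library in ASP shSCR and 12870563 to 19684386 in NoASP shSCR. ASP shSCR replicate 2 stood apart from the other libraries. Its median correlation with the other 7 was 0.962, against 0.972 to 0.979 for each of those, and it lay at −54.8 on a first principal component (29.5% of the variance) on which the others lay between −11.5 and 24.8. It also had the highest share of counts in cytosolic ribosomal protein genes (18.1%) and in the 50 most abundant genes (26.7%). NoASP shSCR replicate 4 was the shallowest and had the highest mitochondrial share, 7.99% against 4.81% to 6.86% in the other 7. None of the 28 pairs of libraries agreed within sampling noise (chi-square per degree of freedom 15.9 to 134). The groups overlapped in all of these shares. Mitochondrial transcripts made up 5.80% ± 1.13 of the counts in ASP shSCR and 5.92% ± 1.39 in NoASP shSCR (SD, n = 4), with an adjusted p of 0.914 in a two-sided exact permutation test over 8 library measures. Cytosolic ribosomal protein transcripts made up 14.6% ± 2.63 and 13.9% ± 2.32 (SD, n = 4, exact permutation test, adjusted p = 0.914). The smallest p this design allows is 0.0286 before adjustment. Over 8 measures, a single fully separated measure could not reach an adjusted p under 0.05, so these tests cannot show that the groups are alike.

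The libraries carried the transcripts of an epithelial tumour line. The cytoskeletal keratin Krt8 was at 1213 ± 332 and 1008 ± 166 CPM (counts scaled to a common library size with TMM factors; SD, n = 4) in ASP shSCR and NoASP shSCR, and the adhesion molecule Epcam was at 385 ± 86.1 and 413 ± 38.5 CPM. Most defining markers of other cells were at or near 0. The leukocyte marker Ptprc reached at most 0.63 CPM, the macrophage receptor Csf1r at most 0.30 CPM, and the endothelial marker Pecam1 at most 0.63 CPM. The neutrophil gene S100a9 was at 0 in all 8 libraries and its partner S100a8 at 0.57 to 1.74 CPM. The fibroblast receptor Pdgfra was an exception, at 8.49 CPM in ASP shSCR and 9.69 CPM in NoASP shSCR, with 155 to 195 reads in every library. Of 18 immune markers 6 were in the table, with a summed level of 9.13 CPM in ASP shSCR and 7.53 CPM in NoASP shSCR, most of it from Cd68. Of 13 fibroblast markers 4 were in the table, and 122 of their 132 CPM in ASP shSCR came from Thy1, whose product is also the reporter carried by some 4T1 cells of the study. Of 9 endothelial markers 2 were in the table (25.2 and 21.1 CPM, nearly all Egfl7) and of 12 neuronal markers 4 (21.4 and 24.0 CPM, mostly Dlg4 and Map2).

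In the fit that ignored replicate numbers, no transcript differed between the groups past the threshold. Of 12793 genes with a mean of at least 10 counts, 0 (0%) had an adjusted p under 0.05 in edgeR's quasi-likelihood test, and the lowest adjusted p was 0.845. At an unadjusted p under 0.05 there were 477 genes (3.73%), 198 higher (1.55%) and 279 lower (2.18%) with aspartate. The split by direction depended on single libraries, with 206 higher and 151 lower without ASP shSCR replicate 1, and 256 and 570 without ASP shSCR replicate 3. DESeq2's Wald test, run on 17757 genes without the filter, also called 0 genes, with 660 at an unadjusted p under 0.05. On the same 12793 genes limma-voom called 0, with 509 at an unadjusted p under 0.05. The 4 libraries of one group lay wholly above or below those of the other for 477 genes (3.73%), of which 234 were higher with aspartate (1.83%) and 243 lower (1.90%). When the replicate number was entered as a block, edgeR called 2 genes (0.0156%), Gm20458 and Zc3h11a, and 1244 genes (9.72%) had an unadjusted p under 0.05, 541 higher (4.23%) and 703 lower (5.50%), as the plot of p-values shows.

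**Figure D1:**
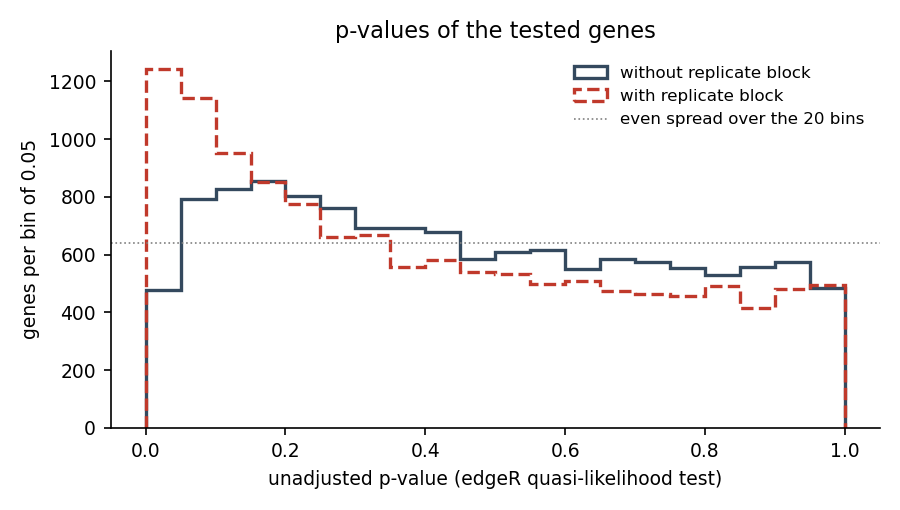
Unadjusted p-values of the 12793 tested genes in edgeR's quasi-likelihood test, as genes per bin of 0.05, without (solid) and with (dashed) the replicate number as a block. The dotted line is an even spread over the bins, and the first bin holds 477 genes without the block and 1244 with it.

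The size of difference that the libraries could bound varied with abundance. Without the block, the 95% interval of the aspartate effect lay within a 2-fold change in either direction for 10831 of the 12793 genes (84.7%). This held for 99.5% of the genes with a mean of at least 1000 counts, for 99.3% of those with 200 to 1000 counts and for 88.0% of those with 50 to 200 counts. Among genes with 10 to 50 counts it held for only 18.5%. The median half-width of the interval was 0.40 on the log2 scale. For moderately and highly expressed transcripts, a change larger than 2-fold was therefore outside the interval of nearly all genes, while for weakly expressed ones it was not.

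A list of 16 genes was built from the mechanism the study describes, with the other NMDA receptor subunit genes added. Of these, 12 were in the table and 9 passed the filter, and 0 were called. Of the 9, 7 had a log2 difference above 0, with a median of 0.17 against −0.00 for all tested genes. The glutamate-binding NMDA receptor subunit Grin2d was the only receptor subunit that passed. Its levels were 3.99, 3.55, 6.58 and 3.15 CPM in ASP shSCR replicates 1 to 4 and 4.01, 4.11, 3.34 and 2.99 CPM in NoASP shSCR replicates 1 to 4, from 42 to 126 reads a library. Apart from ASP shSCR replicate 3 these values spanned the same range. The difference was 0.26 on the log2 scale with an SE of 0.28, and it was −0.02 without ASP shSCR replicate 3. Grin1, the obligatory subunit, and Grin3b had at most 5 reads in any library and were not tested. Grin2a, Grin2b, Grin2c and Grin3a were not in the table.

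Creb1, which encodes CREB, was at 55.6 ± 19.3 CPM in ASP shSCR and 63.5 ± 8.90 CPM in NoASP shSCR (SD, n = 4), a log2 difference of −0.19 (95% interval −0.63 to 0.24). It was −0.07 without ASP shSCR replicate 2 and −0.46 without ASP shSCR replicate 3. Immediate early genes, many of them CREB targets, gave no calls. Of 28 tested members of the list, 1 had an unadjusted p under 0.05, or 3.57% against 3.73% of all genes, and 3 with the replicate block, or 10.7% against 9.72%. All 3 were higher with aspartate, against 4.23% of all genes in that direction. With the block and a trend on transcript GC content removed it was 0 of 28, against 4.15% of all genes. The median log2 difference of the list was 0.07, and −0.04 with a trend on transcript GC content removed from each library. The gene with the low p in the fit without the block was Nr4a1, an orphan nuclear receptor induced by calcium and cAMP, with 30.9, 34.9, 30.5 and 31.7 CPM in ASP shSCR and 27.9, 22.3, 23.3 and 27.8 CPM in NoASP shSCR. Its groups did not overlap. The log2 difference was 0.34 with an SE of 0.14 and an adjusted p of 0.845 in edgeR. In the polysomal libraries it was 0.32, and −0.38 without ASP shSCR replicate 1. With the GC trend removed, the sub-polysomal difference of Nr4a1 was 0.17. Jund, the most abundant member, was at 1141 ± 320 and 903 ± 97.9 CPM (SD, n = 4), a log2 difference of 0.34 that was 0.12 without ASP shSCR replicate 2.

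Dohh, at chr10:81384428-81388352 (GRCm38, plus strand), encodes the enzyme of the final step of hypusine formation, and the study placed it downstream of CREB. Its levels were 95.8, 81.1, 99.0 and 85.6 CPM in ASP shSCR and 83.5, 69.97, 98.4 and 63.2 CPM in NoASP shSCR, from 888 to 2425 reads a library. Within each replicate number the aspartate library was the higher one, but the groups overlapped. In the fit without the replicate block, the log2 difference was 0.20 with an SE of 0.16 (adjusted p = 0.845 in edgeR). Its 95% interval ran from a 0.909-fold to a 1.45-fold level. Dhps, the enzyme of the preceding step, gave nearly the same value, 0.20 with an SE of 0.15, at 37.9 ± 4.38 and 33.1 ± 5.20 CPM (SD, n = 4). The substrate Eif5a was abundant and differed by 0.09 (SE 0.23), and its paralogue Eif5a2 by −0.12 (SE 0.19). In the other sub-polysomal libraries of the series, normalized together, Dohh was at 82.7 ± 17.2 CPM in ASP shGRIN2D and 93.1 ± 9.61 CPM in ASP shDHPS, beside 90.8 ± 7.60 in ASP shSCR and 79.0 ± 15.9 in NoASP shSCR (SD, n = 4).

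The promoter of Dohh is shown because CREB was proposed to act on it. The RefSeq promoter window (GRCm38.p6), from 250 bases before to 50 bases after the gene start, lies at chr10:81384184-81384483 on the plus strand. It held neither the full cAMP response element TGACGTCA, which reads alike on both strands, nor its half-site TGACG or CGTCA, which the full element contains. This says only that these letters are not in this window. Among the tested immediate early genes of the list with a promoter window, 3 had the full element and 16 did not. The other tested members matched no window and were not searched. For the 3, 30-base stretches around the element are given with it in capitals. They lie at chr5:91139527-91139556 (plus strand) for Areg, chr1:134079303-134079332 (minus strand) for Btg2 and chr17:26508597-26508626 (minus strand) for Dusp1.
Dohh promoter: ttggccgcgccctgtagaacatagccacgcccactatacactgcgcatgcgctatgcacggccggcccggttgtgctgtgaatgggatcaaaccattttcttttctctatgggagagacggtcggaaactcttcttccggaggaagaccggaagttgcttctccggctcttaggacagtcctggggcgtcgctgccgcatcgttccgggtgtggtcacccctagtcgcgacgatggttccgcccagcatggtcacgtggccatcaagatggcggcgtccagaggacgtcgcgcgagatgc
Areg: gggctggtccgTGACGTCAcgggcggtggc
Btg2: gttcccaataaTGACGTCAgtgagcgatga
Dusp1: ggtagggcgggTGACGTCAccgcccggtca

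Areg, Btg2 and Dusp1 had log2 differences of −0.12, −0.05 and 0.24. The full element was in 1.79% of all 32851 promoter windows, and the half-site in 20.8%. Of the 12793 tested genes 9527 matched a promoter, and 351 of these had the full element. Their median log2 difference was −0.03 against −0.00 for all matched genes, and 14 of the 351 (3.99%) had an unadjusted p under 0.05, against 3.82% of all matched genes. Of the 14, 3 were higher with aspartate (0.85% of the 351, against 1.55% of all matched genes) and 11 lower (3.13%, against 2.27%).

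Tgfb1, at chr7:25687002-25705077 (GRCm38, plus strand), encodes the cytokine TGF-β1. It was the only one of the 9 mechanism genes whose groups did not overlap, against 3.73% of all tested genes. The margin was narrow, with 260, 365, 271 and 285 CPM in ASP shSCR and 259, 232, 213 and 222 CPM in NoASP shSCR. ASP shSCR replicate 2 was the highest library. The log2 difference was 0.35 with an SE of 0.16 (edgeR, unadjusted p = 0.0399, adjusted p = 0.845), and 0.23 without that library. With the replicate block the adjusted p was 0.511. The polysomal libraries of the same pellets gave a difference of 1.06, which was 0.27 without ASP shSCR replicate 1. Smad3, which carries the TGF-β signal to the nucleus, differed by 0.11 (SE 0.18), and the collagen gene Col6a1 by 0.17 (SE 0.15). Col1a1 reached at most 1.46 CPM and was not tested. The plot of the mechanism genes by library shows that the groups of the other 8 were interleaved.

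**Figure D2:**
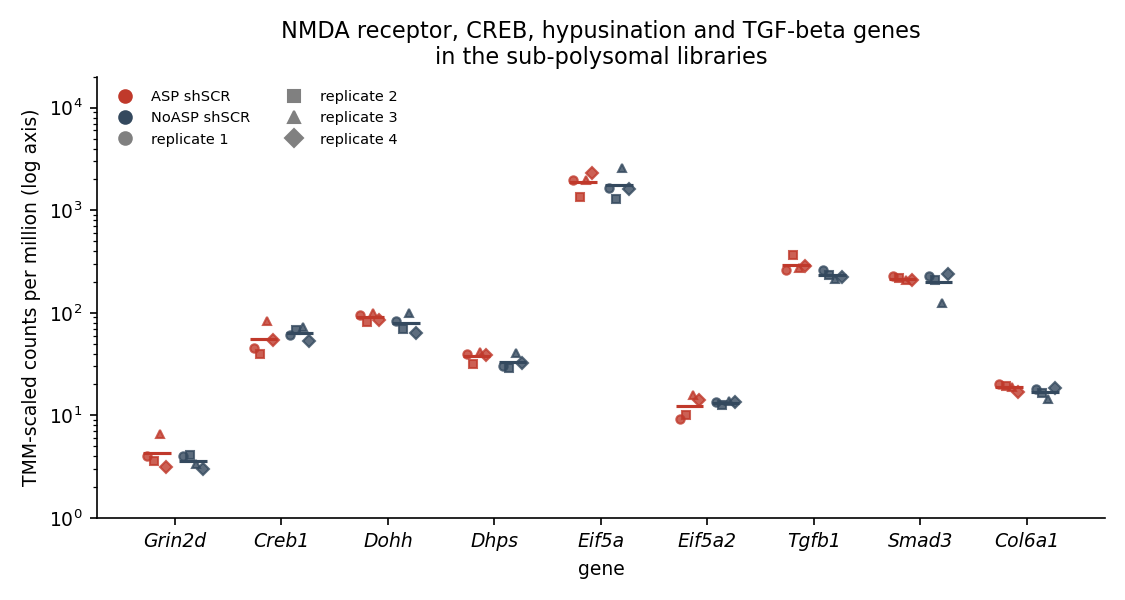
Levels of the 9 tested mechanism genes in the 8 sub-polysomal libraries, in TMM-scaled CPM on a log axis. Points are libraries with the symbol giving the replicate number, bars are group means, and the groups overlap for every gene but Tgfb1.

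Without the block, 0 genes passed the threshold. Those described here as closest to it had the smallest unadjusted p-values, 10 in each direction. All had a symbol and a mean of at least 50 counts. All 20 had an adjusted p of 0.845 in edgeR, and because they were ranked by this test their differences are a description. The genes higher with aspartate had log2 differences of 0.38 to 0.72. First was Castor1 (chr11:4218225-4222409, GRCm38), a cytosolic arginine sensor of the mTORC1 pathway, with 13.7, 13.7, 13.2 and 15.3 CPM in ASP shSCR and 9.76, 9.61, 10.2 and 8.33 CPM in NoASP shSCR. Every aspartate library was above every library without aspartate, and the log2 difference was 0.56 with an SE of 0.16 (unadjusted p = 0.00331). Coq4, needed for coenzyme Q synthesis, was at 15.4 ± 2.17 and 10.4 ± 1.23 CPM, and Isyna1, the enzyme that makes inositol phosphate from glucose 6-phosphate, at 82.6 ± 5.65 and 61.6 ± 6.71 CPM (SD, n = 4). The autophagy gene Tecpr1, the vitamin B12 carrier receptor Cd320, the AlkB-family demethylase Alkbh4, the scavenger receptor Stab1, Apol9a of the apolipoprotein L family, the zinc finger gene Zfp777 and E130309D02Rik completed the 10. Of these, only Stab1 overlapped between the groups, against non-overlap in this direction for 1.83% of all tested genes, but the 10 were picked for a small p and nothing is read from this.

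The genes lower with aspartate had log2 differences of −1.13 to −0.44. Txndc16 (chr14:45133465-45220328, GRCm38), a thioredoxin-domain protein of the endoplasmic reticulum, was at 1.58, 2.13, 2.14 and 2.30 CPM in ASP shSCR and 3.16, 6.89, 4.59 and 3.13 CPM in NoASP shSCR. The groups did not overlap, and the log2 difference was −1.13 with an SE of 0.32 (unadjusted p = 0.00273), from 36 to 124 reads a library. Ppil4, a peptidyl-prolyl isomerase associated with the spliceosome, was at 10.4 ± 1.22 and 15.2 ± 0.41 CPM, and Zranb3, a DNA translocase that acts at stalled replication forks, at 3.55 ± 0.28 and 5.86 ± 0.26 CPM (SD, n = 4). Rfc1, the large subunit of the replication clamp loader, was at 39.5 ± 2.58 and 54.0 ± 4.57 CPM. The insulin receptor gene Insr was at 18.5 ± 3.16 and 26.7 ± 2.86 CPM, and the sodium, potassium and chloride cotransporter gene Slc12a2 at 56.4 ± 9.17 and 78.9 ± 6.86 CPM. The others were the centriolar gene Ofd1, the pre-rRNA processing gene Utp6, the ubiquitin ligase scaffold Cul5 and the helicase gene Ddx42. Of these 10, only Ofd1 overlapped between the groups, against non-overlap in this direction for 1.90% of all tested genes, and these too were picked for a small p. The 10 higher genes had a median transcript GC content of 57.0% and the 10 lower ones of 44.7%.

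**Figure D3:**
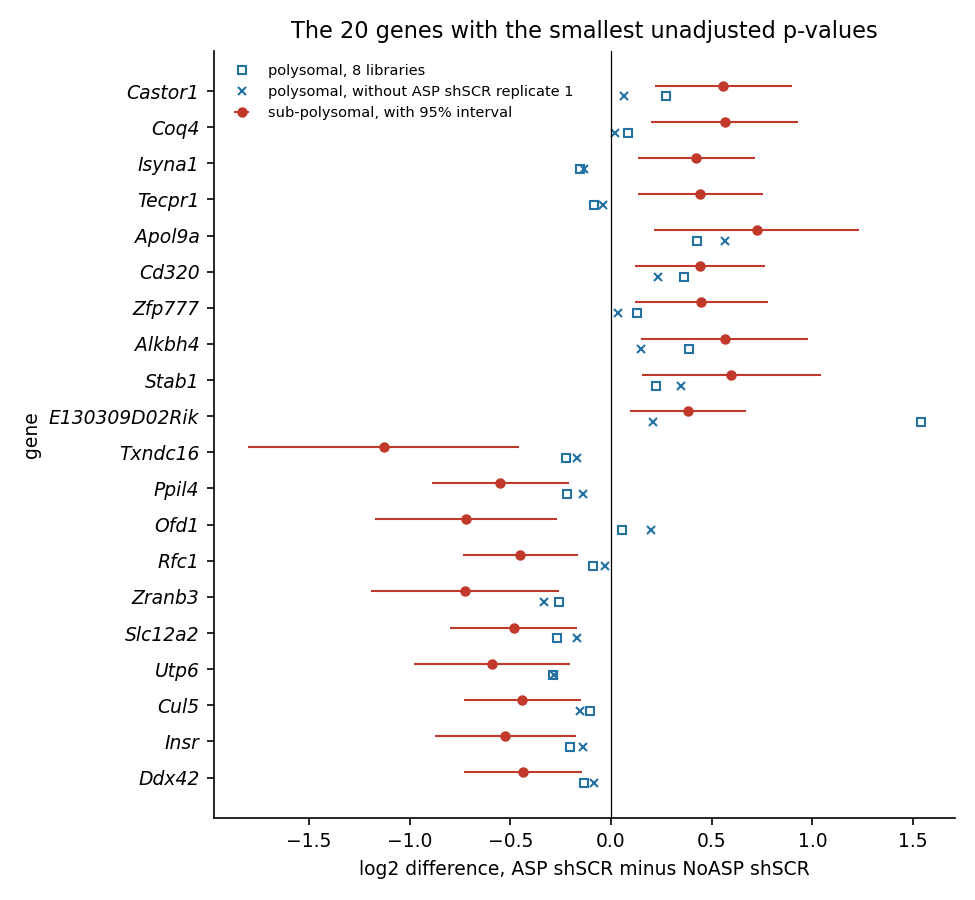
Log2 differences (ASP shSCR minus NoASP shSCR) of the 20 genes with the smallest unadjusted p-values, with 95% intervals for the sub-polysomal libraries (filled circles) and estimates for the polysomal libraries with (squares) and without (crosses) ASP shSCR replicate 1. The polysomal estimates are mostly on the same side of 0 and nearer to it, except for E130309D02Rik.

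The polysomal libraries come from the same pellets, so a deviation of a pellet can appear in both fractions, and they are no independent replication of these 20 genes. There, 0 of 12706 genes (0%) were called by edgeR, 622 (4.90%) had an unadjusted p under 0.05, and DESeq2 called 1 gene, Gm20431, which had no reads in 6 of the 8 libraries. Of the 622, 592 were higher with aspartate (4.66% of the tested genes) and 30 lower (0.236%). ASP shSCR replicate 1 stood apart among the polysomal libraries, with a TMM factor of 0.685 against 0.984 to 1.15 and 4.72% mitochondrial counts against 0.58% to 1.08%. Its ferritin heavy chain transcript Fth1 was at 64305 CPM, against 599 to 1260 CPM in the other 7. Without it, 97 of 12679 genes (0.765%) had an unadjusted p under 0.05, and with all libraries and the replicate block 590 (4.64%) did, with 0 calls in either fit. Of the 10 genes higher in the sub-polysomal libraries 8 were also higher in the polysomal ones, with a median of 0.25 (0.11 without ASP shSCR replicate 1) against 0.50. Of the 10 lower genes 9 were also lower, with a median of −0.21 (−0.15 without it) against −0.54. Over all 12347 genes tested in both fractions, 60.6% had the same sign (56.7% without that library). The test of the difference between the fractions called 0 of 12798 genes (0%), with 213 (1.66%) at an unadjusted p under 0.05 in edgeR, 217 in DESeq2 and a lowest adjusted p of 0.991. Without ASP shSCR replicate 1 it also called 0, with 207 (1.62%) at an unadjusted p under 0.05 and a lowest adjusted p of 0.104. None of the 20 differed between the fractions past the threshold.

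The differences across genes were graded by transcript GC content. Among 12654 tested genes with a transcript in the GRCm38 annotation (98.9%), split into 3 groups of 4218 by GC content, the group with the lowest GC content had a median log2 difference of −0.16, the middle group −0.01 and the highest group 0.16. Of the 279 genes that were lower with aspartate at an unadjusted p under 0.05, 209 were in the lowest GC group and 8 in the highest. Of the 198 that were higher, 159 were in the highest GC group and 6 in the lowest. For each library, the median centred log2 level of the highest GC group minus that of the lowest was 0.26, 0.41, −0.06 and 0.01 in ASP shSCR replicates 1 to 4 and −0.03, −0.27, −0.21 and −0.15 in NoASP shSCR. ASP shSCR replicates 1 and 2 were therefore far above the others, and replicates 3 and 4 close to 0. The mean difference between the groups was 0.32, with a two-sided exact permutation p of 0.0571 and an adjusted p of 0.457 over 8 library measures. With 8 measures, the adjusted p of a single measure could not fall under 0.05. Within replicate numbers the aspartate library had the higher value in 4 of 4 pairs, by 0.29, 0.68, 0.16 and 0.16, for which an exact permutation test over pairs gives its smallest possible p, 0.125. Transcript length showed a smaller gradient, with medians of 0.07, 0.00 and −0.09 from the shortest to the longest of 3 groups. In the polysomal comparison the medians from the lowest to the highest GC content were −0.02, 0.03 and 0.08, and without ASP shSCR replicate 1 they were −0.01, −0.02 and −0.01.

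**Figure D4:**
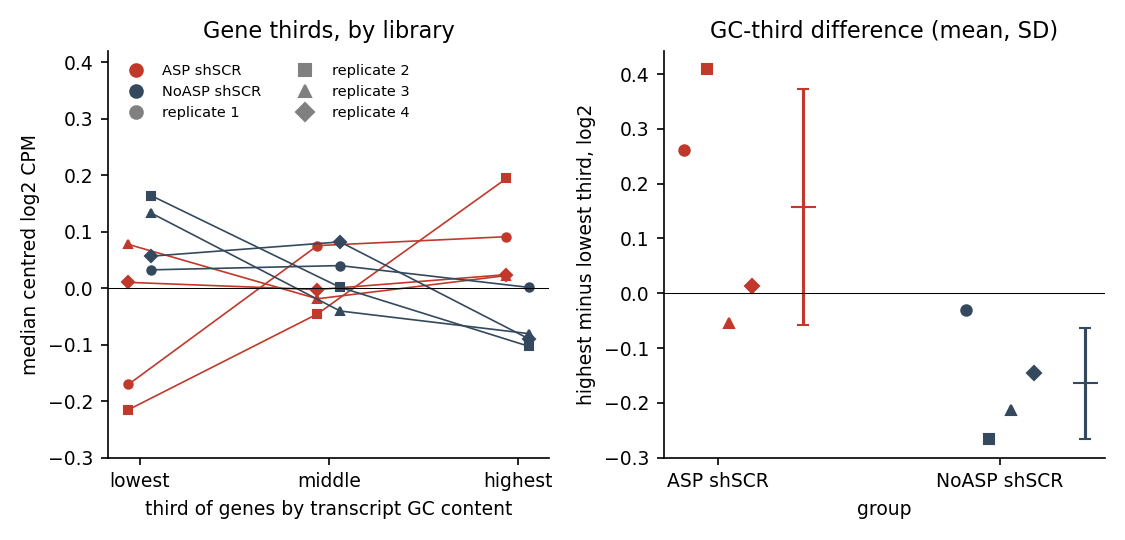
Left, median centred log2 CPM of the genes in the lowest, the middle and the highest group by transcript GC content, a line for each library with the symbol giving the replicate number. Right, the highest minus the lowest GC group for each library, with group means and SD, where ASP shSCR replicates 1 and 2 lie at 0.26 and 0.41 and the NoASP shSCR libraries between −0.27 and −0.03.

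When a trend on GC content was removed from each library, edgeR again called 0 genes, and 204 had an unadjusted p under 0.05, 104 higher and 100 lower. The estimates of the mechanism genes moved towards 0. Dohh, with a GC content of 62.5%, went from 0.20 to −0.01 (SE 0.15), Grin2d from 0.26 to 0.03 (SE 0.28) and Col6a1 from 0.17 to 0.02 (SE 0.14). Creb1, at 39.6% GC, went from −0.19 to −0.04 (SE 0.15). Tgfb1 kept most of its value, 0.29 with an SE of 0.14 (edgeR, unadjusted p = 0.0641). The median over the 9 tested mechanism genes was 0.03. All 20 genes of the ranking kept their direction and 15 kept an unadjusted p under 0.05, among them Apol9a at 0.75, Coq4 at 0.52, Txndc16 at −0.98 and Zranb3 at −0.62. The other 5 did not, with Isyna1 at 0.21, Tecpr1 at 0.26, Zfp777 at 0.25, Stab1 at 0.41 and Cul5 at −0.25.

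The gene lists of pathways gave 0 calls among the tested members, and 22 of 873 members (2.52%) had an unadjusted p under 0.05, against 3.73% of all tested genes. With the replicate block it was 89 (10.2%), against 9.72%, and with both libraries numbered 2 also left out 18 (2.06%), against 3.15%. Without numbers 1, 3 and 4 it was 68 (7.81%), 137 (15.7%) and 88 (10.1%), against 7.50%, 14.0% and 9.78%. With the block and the GC trend removed it was 52 (5.96%), against 4.15%. In the block fit 5 or more members had an unadjusted p under 0.05 in the same direction in the heat shock list (6 of 21 lower, 28.6%), the S phase list (5 of 33 lower, 15.2%) and the cholesterol synthesis list (5 of 26 lower, 19.2%), against 5.50% of all tested genes, and in the list of amino acid stress genes regulated by ATF4 (7 of 36 higher, 19.4%) and the hypoxia and glycolysis list (6 of 40 higher, 15%), against 4.23%. Without the libraries numbered 2 these counts were 0, 1, 1, 1 and 0, and the shares of all tested genes also fell, to 1.81% lower and 1.34% higher. Without the libraries numbered 1, 3 or 4 the counts were 2, 6 and 4 for heat shock, 5, 6 and 4 for S phase, 3, 5 and 6 for cholesterol synthesis, 4, 7 and 3 for the ATF4 list and 4, 8 and 6 for hypoxia and glycolysis. The shares of all tested genes were then 3.32%, 8.18% and 6.84% lower and 4.18%, 5.79% and 2.94% higher. In the same order of lists and directions, the counts were 1, 1, 3, 2 and 0 without the block, against 2.18% lower and 1.55% higher. With the block and the GC trend removed they were 2, 2, 2, 3 and 2, against 1.95% lower and 2.20% higher. In that fit the lists with 5 or more were others, all higher. They were NF-κB targets (5 of 31, 16.1%), mitochondrially encoded genes (5 of 15, 33.3%) and cytosolic ribosomal protein genes (6 of 84, 7.14%). Several list medians changed sign or came close to 0 when 1 library was left out. The hypoxia and glycolysis list, the genes that hypoxia-inducible factor switches on when oxygen is short, had a median log2 difference of 0.15 over 40 tested members. Its median centred level was −0.17, 0.76, −0.26 and −0.13 in ASP shSCR and −0.23, 0.40, −0.23 and −0.14 in NoASP shSCR. Replicate 2 of both groups was high, and all others were below 0. Without ASP shSCR replicate 2 the median difference was −0.15, and with both libraries numbered 2 left out in the fit with the replicate block it was 0.00. Ndrg1, a hypoxia-induced stress gene picked after its values were seen, was at 109, 368, 133 and 142 CPM in ASP shSCR and 110, 217, 156 and 147 CPM in NoASP shSCR. Ankrd37, a direct target of the same factor and likewise picked, was at 35.4 and 27.7 CPM in the 2 libraries numbered 2 and at 1.92 to 7.08 CPM in the other 6. The polysomal libraries of these pellets were also highest in replicate 2, with list medians of 0.42 and 0.26 in replicate 2 against −0.24 to 0.14 in the other 6, each centred over the 16 libraries of the fraction. Centred likewise over the 16 sub-polysomal libraries, replicate 2 was at 0.94 in ASP shSCR and 0.47 in NoASP shSCR. On these scales, replicate 2 of ASP shGRIN2D and ASP shDHPS was at −0.18 and −0.20 in the sub-polysomal and −0.51 and −0.27 in the polysomal libraries.

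NF-κB targets and cytokines had the highest list median apart from lists with under 4 tested members, 0.18 over 31 tested members. ASP shSCR replicate 2 again stood out, with a centred median of 0.65 against −0.30 to 0.11 in the other 7 libraries. Without it the median difference was −0.10. Relb, a subunit of the non-canonical NF-κB pathway, was at 37.7, 77.9, 42.8 and 38.6 CPM in ASP shSCR and 35.7, 39.4, 27.4 and 32.3 CPM in NoASP shSCR. Its unadjusted p was 0.0227 and its adjusted p 0.845 in edgeR, and its log2 difference of 0.55 was 0.23 without ASP shSCR replicate 2. Cytosolic ribosomal protein transcripts, which carry a terminal oligopyrimidine tract and shift out of polysomes when mTORC1 is inhibited, had a median log2 difference of 0.14. Of 84 members 76 were above 0 and 0 had an unadjusted p under 0.05. The centred medians were 0.08, 0.49, −0.02 and −0.29 in ASP shSCR and 0.07, 0.16, 0.10 and −0.55 in NoASP shSCR, so ASP shSCR replicate 2 was highest and NoASP shSCR replicate 4 lowest. The median difference was −0.02 without the former and −0.00 without the latter.

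Cell cycle and chaperone lists had medians slightly below 0. The G2/M list, genes that drive entry into and passage through mitosis, had a median log2 difference of −0.15, with 12 of 37 members above 0 and 2 lower at an unadjusted p under 0.05 (5.41%, against 2.18% of all tested genes). Its centred medians were −0.11, −0.10, −0.07 and 0.03 in ASP shSCR and −0.05, 0.10, 0.07 and 0.10 in NoASP shSCR, so that the groups overlapped in 1 library each. The spindle motor Kif11 was at 34.7 ± 1.33 and 45.1 ± 7.60 CPM (SD, n = 4; edgeR, unadjusted p = 0.0211, adjusted p = 0.845). The median GC content of the list was 46.3%, and with the GC trend removed its median difference was −0.00. The S phase list had a median of −0.09, and −0.06 with the GC trend removed. In it the replicative helicase subunit Mcm4 was at 27.8 ± 6.20 and 37.2 ± 4.04 CPM. Of 21 heat shock chaperone genes 4 were above 0, with a median of −0.13 (−0.09 with the GC trend removed), and the mitochondrial chaperone Hspa9 was at 137 ± 15.6 and 170 ± 8.67 CPM. The plot of lists by library shows these shifts beside the larger spread of the hypoxia, NF-κB and ribosomal protein lists.

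**Figure D5:**
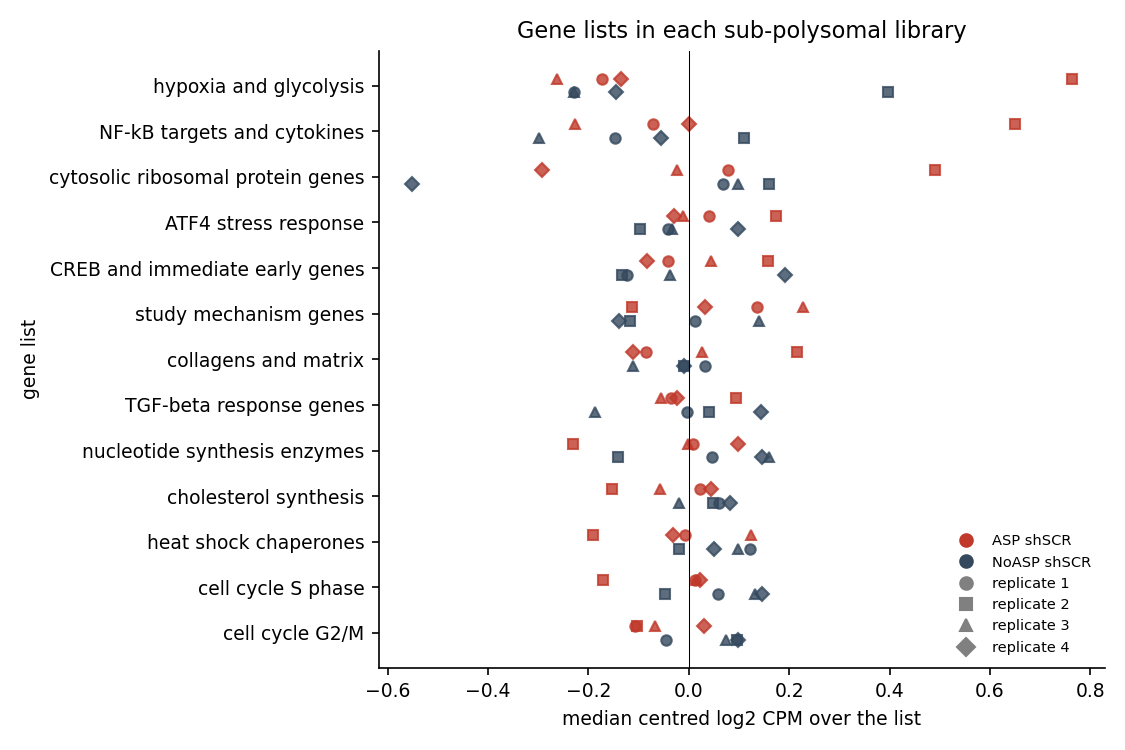
Median centred log2 CPM of 13 gene lists in each of the 8 sub-polysomal libraries, with the group given by colour and the replicate number by symbol. Replicate 2 (squares) is far to the right for hypoxia and glycolysis in both groups, and NoASP shSCR replicate 4 (diamond) far to the left for cytosolic ribosomal protein genes.

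Among the HALLMARK gene sets, the median log2 difference was 0.11 for MYOGENESIS and 0.08 for P53_PATHWAY, both among the 3 highest. The lowest were −0.14 for PROTEIN_SECRETION, −0.13 for APICAL_SURFACE and −0.12 for G2M_CHECKPOINT. With the GC trend removed these were 0.01, 0.03, −0.04, −0.07 and −0.03. No member of these 5 sets was called.

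The 2 calls of the fit with the replicate block fell on overlapping annotations. Zc3h11a, a zinc finger gene of mRNA export, was at 82.9, 88.0, 44.9 and 73.9 CPM in ASP shSCR and 84.7, 18.6, 8.29 and 32.8 CPM in NoASP shSCR (adjusted p = 0.0375 in edgeR with the block). A second annotation of the same locus in the table, listed as Zc3h11a.2, ran the other way, at 12.1, 0, 68.9 and 21.4 CPM against 43.4, 87.4, 114 and 75.5 CPM. Together with Gm38394 they cover chr1:133619862-133661380 (GRCm38, minus strand). The summed counts of the 3 annotations were 112 ± 17.1 CPM in ASP shSCR and 133 ± 7.60 CPM in NoASP shSCR (SD, n = 4), a log2 difference of −0.25 with an SE of 0.15 (adjusted p = 0.845 in edgeR, 0.510 with the block). The locus as a whole thus did not show the difference of either annotation alone. Gm20458 (chr2:164460967-164490760, GRCm38) overlaps Sys1, Trp53tg5 and Dbndd2. It was at 24.9 and 8.99 CPM in ASP shSCR replicates 2 and 4, at 3.89 CPM in NoASP shSCR replicate 2 and at 0 in the other 5 libraries (adjusted p = 0.00991 in edgeR with the block). How Salmon divided reads between overlapping annotations was not tested.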

How the data were processed

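The authors trimmed paired reads of stranded mRNA libraries with Trim Galore 0.6.6, checked them with FastQC 0.11.9, mapped them to GRCm39 with STAR 2.6.1, quantified them with Salmon 1.4.0, rounded the estimates and left out genes with little or no expression. They deposited the resulting counts for 17757 genes, not normalized. Because Salmon assigns reads by likelihood, genes that overlap or share sequence can exchange counts. The deposited tables of the authors' own comparisons (DESeq2 1.34.0 differences, p-values, ranking metrics and gene set scores) were not used.

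Groups came from the sample descriptions. Genes with a mean of at least 10 counts over the 8 libraries were tested with edgeR 4.0.16 in R 4.3.3 (TMM scaling, quasi-likelihood test, two-sided, Benjamini-Hochberg adjustment over all tested genes, threshold 0.05). CPM in the text are scaled by TMM factors, and centred log2 CPM (prior count 2) are relative to the gene's mean over the libraries. The polysomal libraries were tested alike, and the difference between fractions with a term for each pellet. Library shares were tested with two-sided exact permutation tests. Steps were tested on simulated data.

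Replicate numbers were checked for pairing. Same-numbered ASP shSCR and NoASP shSCR libraries had correlated deviations from their group means (r = 0.178 to 0.343, 4 pairs). Differently numbered ones had r = −0.249 to 0.085 (12 pairs), so the numbers met the rule for pairing. Unless stated, the estimates, SEs, intervals and ranking of genes come from the fit without the block and do not use this pairing. With the block, genes at an unadjusted p under 0.05 in edgeR rose from 477 to 1244. The fit with the block is given where it changed a call, and for some genes and lists. The labels do not say what a number shares.

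Named genes were those of the study's mechanism with the other NMDA receptor subunits, the 10 genes in each direction with the smallest unadjusted p and a mean of at least 50 counts, and for each list the members with the smallest p in each direction and the most abundant one. Genes chosen otherwise are marked, and 2 items that these rules name are not reported here. The comparison, the lists and these rules were chosen with earlier results of these data known. Alternatives were other scalings and filters, DESeq2 1.42.0, limma-voom 3.58.1, all 16 sub-polysomal libraries, the block, removal of a lowess trend on GC content and leaving out each replicate. Transcript length, GC content and positions came from a GRCm38 annotation (GENCODE M21) and promoters from RefSeq (GRCm38.p6), since no GRCm39 coordinates were used here. Library totals were 12870563 to 25639437 counts, and the median SE per gene was 0.19 (log2).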

Additional observations from a re-analysis of the deposited data

Results flagged for a closer look

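In 74 groups of 4 libraries (the tested mechanism genes, the 20 genes closest to the threshold and 8 library measures), 4 held a library whose gap to its nearest neighbour was large for the range of the group. For independent groups not picked by their values, chance would give about 1 in 20, or 3.7. The 20 genes were ranked by p in these same libraries, and the groups share libraries, so this is only a rough guide. The 4 flagged were Tecpr1 in ASP shSCR replicate 4 (39.0 CPM, against 34.3 to 34.6 in the other 3), E130309D02Rik in ASP shSCR replicate 3 (110 CPM, against 88.1 to 89.9), E130309D02Rik in NoASP shSCR replicate 1 (78.2 CPM, against 69.6 to 70.6) and the mitochondrial share of NoASP shSCR replicate 4 (7.99%, against 4.98% to 5.41%).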

How the results depend on the processing

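The count of 0 genes past the threshold in the sub-polysomal comparison was the same under every other scaling, filter, tool and left-out library that was run without a block. These fits tested 10811 to 17757 genes, and 204 to 826 had an unadjusted p under 0.05, the highest without ASP shSCR replicate 3. With the replicate block the count past the threshold was 2 in edgeR, 1 when the Zc3h11a annotations were summed, 0 in DESeq2, 0 with all 16 libraries and 0 with the GC trend removed. With the block and both libraries of 1 number left out, it was 23 of 12758, 2 of 12773, 6 of 12798 and 6 of 12874 genes without numbers 1, 2, 3 and 4. The 23 included ribosomal protein pseudogenes, histone genes and noncoding RNAs such as Rmrp and Rn7s2. List members past the threshold then ranged from 0 to 3, with 3 of 871 without number 1 (mt-Rnr1 and the histone genes H2ac19 and H2ac8) and 2 of 874 without number 3 (H2bc13 and H2ac24). The block and DESeq2 fits were otherwise without calls among list members. In the polysomal comparison DESeq2 called 1 gene and the block 0, and the difference between fractions gave 0 under all alternatives. The causes of these changes were not tested.

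Of the 29 tested mechanism and ranked genes, 5 changed direction, none of them near the threshold. Of 88 other genes taken as list examples, 12 changed direction on leaving out a library and 5 with the GC trend removed, 15 in all. With the GC trend removed, Dohh was at −0.0077, Eif5a at −0.023 and Eif5a2 at 0.033, and with the block added Dohh was at −0.012, Eif5a at −0.010, Eif5a2 at 0.033 and Grin2d at −0.027. On leaving out single libraries, Grin2d ranged from −0.019 to 0.38, Eif5a from −0.035 to 0.32, Eif5a2 from −0.26 to 0.0039 and Smad3 from −0.063 to 0.20. With the block and a number left out, Grin2d ranged from −0.049 to 0.36, Eif5a from −0.033 to 0.28 and Smad3 from −0.048 to 0.25. The group difference in the mitochondrial share was −0.12 percentage points and ranged from −0.47 to 0.57 on leaving out single libraries (highest without NoASP shSCR replicate 4), and that of the ribosomal protein share was 0.74 and ranged from −0.41 to 1.71 (lowest without ASP shSCR replicate 2). Settings with the GC trend removed, the summed Zc3h11a locus, blocks in other fits and numbers left out were chosen after seeing the data. Of the genes with 10 to 50 counts, 18.5% had an interval within 2-fold, and whether depth set this was not tested.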

Other observations

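No member of the remaining gene lists was called (0 in edgeR), and the medians of the pathway lists lay between −0.10 and 0.12. Amino acid stress genes regulated by ATF4 had a median log2 difference of 0.12 (0.03 without ASP shSCR replicate 2), and the pseudokinase Trib3 was at 21.04 ± 6.09 CPM in ASP shSCR and 15.4 ± 1.08 CPM in NoASP shSCR (SD, n = 4; edgeR, unadjusted p = 0.0300, adjusted p = 0.845), a log2 difference of 0.45 that was 0.23 without ASP shSCR replicate 2. Genes of aspartate metabolism and the malate-aspartate shuttle were at −0.00, with the mitochondrial aspartate aminotransferase Got2 at 226 ± 55.8 and 189 ± 22.8 CPM (a log2 difference of 0.25, and 0.07 without ASP shSCR replicate 2). Nucleotide synthesis enzymes, which draw on aspartate for purine and pyrimidine rings, were at −0.10, with 8 of 31 above 0, and Prps2, which makes the ribose phosphate donor, was at 23.1 ± 2.38 and 29.8 ± 3.20 CPM (edgeR, unadjusted p = 0.0222, adjusted p = 0.845). Amino acid transporters were at 0.01, and 0.18 without NoASP shSCR replicate 4. Cholesterol synthesis genes were at −0.07, with 1 of 26 higher (3.85%, against 1.55% of all tested genes) and 3 lower (11.5%, against 2.18%) at an unadjusted p under 0.05. Mvk, mevalonate kinase, was at 66.6 ± 7.16 and 51.8 ± 6.77 CPM. Fatty acid synthesis genes were at 0.03.

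Collagen and matrix genes were at 0.07, TGF-β response genes at −0.01 (0.11 without NoASP shSCR replicate 4), epithelial state genes at 0.12 (0.02 without ASP shSCR replicate 2) and mesenchymal state genes at 0.06. With the GC trend removed the collagen and matrix median was −0.02, the epithelial −0.04 and the mesenchymal −0.03. Ltbp1, which binds latent TGF-β, was at 55.9 ± 7.25 and 70.4 ± 6.78 CPM (SD, n = 4). Initiation and elongation factors were at 0.01, polyamine metabolism at −0.03, ribosome biogenesis at −0.03 and endoplasmic reticulum chaperones at −0.08. NRF2 targets were at 0.02, interferon-stimulated genes at 0.04, lysosome and autophagy genes at 0.07, snoRNA hosts and nuclear long noncoding RNAs at 0.03, mitochondrial ribosomal protein genes at 0.03, mitochondrially encoded genes at 0.06 and histone genes at 0.11. Of these the NRF2 and histone medians turned sign with the GC trend removed, to −0.01 and −0.02, as did those of amino acid transporters (−0.01) and fatty acid synthesis (−0.02). The same removal raised the median of mitochondrially encoded genes to 0.22 and that of snoRNA hosts and nuclear long noncoding RNAs to 0.13. The mitochondrial ribosomal RNA mt-Rnr1 was at 891 CPM in ASP shSCR replicate 4 and at 110 to 308 CPM in the other 7 libraries. Cell markers that could be tested had medians of 0.38 for immune cells (2 genes), 0.31 for fibroblasts (3), 0.25 for endothelial cells (1) and −0.18 for neurons (2), and none was called.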
